A study of Mus musculus with 14 samples.

Results

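Transcripts of the oxidative phosphorylation machinery were compared between fetal and adult mouse prostate cells. The members are the 86 genes whose symbols begin with the stems used for subunits of the mitochondrial respiratory complexes and of ATP synthase (Ndufa, Ndufb, Ndufc, Ndufs and Ndufv; Sdh; Uqcr; Cox4i, Cox5, Cox6, Cox7 and Cox8; Atp5), out of 18193 genes named by a probe set of their own on the arrays. Grouped by symbol, they comprise 36 genes of complex I, 4 of complex II with 4 assembly factors that share the Sdh stem (Sdhaf1 to Sdhaf4), 8 of complex III, 17 of complex IV and 17 of complex V. All 86 passed the filter on low signals, a signal above 20 on at least 1 array. The cells were profiled on 14 single-colour oligonucleotide arrays. The labels give the strain as C57BL/6 for the embryos and C57BL for the adults, and the study's methods give C57BL/6 for both. UGE, the epithelium of the urogenital sinus from which the prostate buds, was taken at embryonic day 16 and gave 3 arrays. The other groups came from prostates of adult males, 6 to 8 weeks old by the labels. The study's methods give 6 weeks and name the duct region nearest the urethra as the source. The tissue was dissociated and sorted by flow cytometry for the surface antigen Sca-1: Sca-1Hi cells (3 arrays), Sca-1Lo cells (4 arrays) and Sca-1Neg cells (4 arrays). The study treats UGE as fetal stem cells, Sca-1Hi as adult stem cells, Sca-1Lo as transit-amplifying cells and Sca-1Neg as the most differentiated cells. The sort used Sca-1 alone and UGE was not sorted, so each group is a mixture of cell types, and a lower signal from fewer cells of a type cannot be told apart from less RNA per cell.

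Oxidative phosphorylation makes ATP at the inner mitochondrial membrane. Complex I takes electrons from NADH and complex II takes them from succinate; both pass them to ubiquinone, complex III hands them on to cytochrome c, and complex IV reduces oxygen. Complexes I, III and IV pump protons, and complex V, the ATP synthase, uses the gradient. Complex II is also an enzyme of the citrate cycle, and it is the complex that has no subunit encoded in mitochondrial DNA. Prostate epithelium is known for an unusual form of this metabolism, since its secretory cells release citrate instead of oxidising it.

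Genes of the chain are classical targets of nuclear respiratory factor 1 (NRF1), of ETS family factors such as GABPA, and of YY1. RefSeq promoters (assembly GRCm38.p6, 250 bases before to 50 after the start of transcription) were found for 71 of the 86 members. The NRF1 motif, GCGCA followed by any base and GCGC, searched on both strands, was present in 16 of the 71 (22.5%) and in 4.60% of the 32851 promoters of all genes. The ETS motif CCGGAAGT was present in 5 members (7.04%) against 3.89% of all promoters, and the YY1 motif AAGATGG in 9 (12.7%) against 6.34%. Of the complex II genes, none of which was called between UGE and Sca-1Hi although all 4 were higher in the mean, Sdha and Sdhd held the NRF1 motif, Sdha in 3 places that do not overlap. Sdhb held none of the motifs, and Sdhc was among the members without a promoter entry. The NRF1 motif was also held by members with a lower mean in UGE, such as Ndufa6 (10.53 against 11.33 in Sca-1Hi). Whether the motif went with the direction of the difference was not tested. Ndufs4, the member with the smallest adjusted p of all comparisons, and Uqcr10, called lower in UGE than in both Sca-1Hi and Sca-1Lo, held no NRF1 or ETS motif, and Ndufs4 held the YY1 motif beyond the stretch shown. These 4 promoters are printed from 150 bases before to 30 after the start, on the minus strand, with NRF1 motifs in capitals: Sdha at chr13:74350211-74350390, Sdhd at chr9:50603820-50603999, Ndufs4 at chr13:114388065-114388244 and Uqcr10 at chr11:4704315-4704494.
Sdha: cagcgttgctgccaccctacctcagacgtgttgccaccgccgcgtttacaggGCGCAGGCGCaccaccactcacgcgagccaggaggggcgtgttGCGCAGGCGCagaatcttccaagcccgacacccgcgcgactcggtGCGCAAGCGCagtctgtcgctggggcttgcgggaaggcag
Sdhd: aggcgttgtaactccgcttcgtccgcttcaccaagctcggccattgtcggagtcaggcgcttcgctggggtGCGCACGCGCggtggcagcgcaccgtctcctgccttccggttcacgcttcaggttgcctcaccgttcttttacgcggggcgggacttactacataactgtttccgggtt
Ndufs4: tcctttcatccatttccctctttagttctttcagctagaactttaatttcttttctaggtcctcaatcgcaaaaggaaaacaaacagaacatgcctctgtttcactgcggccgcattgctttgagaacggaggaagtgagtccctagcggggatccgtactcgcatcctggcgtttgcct
Uqcr10: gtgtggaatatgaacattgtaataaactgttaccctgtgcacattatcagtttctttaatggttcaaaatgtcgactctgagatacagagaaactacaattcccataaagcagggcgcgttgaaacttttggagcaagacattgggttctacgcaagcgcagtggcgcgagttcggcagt
A match of letters is a description of the sequence and not a measured binding site.

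The adult arrays fell into 2 sets that matter for these genes. Column names of the study's supplementary table number the arrays within each group, and the numbers could be tied to the arrays through values on 564 probe sets that differed by at most 1.2e-05; what they stand for is not stated. Adult arrays numbered 1 and 2 were replicate 1 of Sca-1Hi and replicates 1 and 2 of both Sca-1Lo and Sca-1Neg, and those numbered 3 to 5 were the remaining 6. The UGE arrays were numbered 1, 2 and 3 and were not divided. Over all genes, deviations from the group means correlated within a set (median 0.365 over 20 pairs of adult arrays of different groups, range -0.147 to 0.705). The 99th percentile of log2 signal lay between 11.76 and 12.72 on the adult arrays numbered 1 and 2 and between 12.64 and 12.84 on those numbered 3 to 5. Cell type markers also moved with the groups. All 10 leukocyte markers and 6 of 9 markers of smooth muscle and pericytes were lower in Sca-1Hi than in Sca-1Neg, and 7 of 8 endothelial markers and all 5 basal cell markers were higher. The part of these differences in the results on the members was not tested.

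Averaged over its members, no complex separated the 4 groups. Values here and below are log2 signals, and means are given with the SD over arrays. The complex I mean was 10.69 ± 0.19 in UGE, 10.67 ± 0.20 in Sca-1Hi, 10.84 ± 0.28 in Sca-1Lo and 10.85 ± 0.46 in Sca-1Neg. The complex IV mean lay between 9.35 and 9.44 in the 4 groups, which is less than the SD within any of them. Complex II differed most. Its mean was 10.64 ± 0.17 in UGE, 10.09 ± 0.10 in Sca-1Hi, 10.42 ± 0.18 in Sca-1Lo and 10.56 ± 0.61 in Sca-1Neg. On single arrays the complex II mean was 10.52, 10.83 and 10.57 in UGE and 10.18, 9.98 and 10.13 in Sca-1Hi, so every UGE array stood above every Sca-1Hi array. In Sca-1Neg it was 10.31 and 9.81 on the arrays numbered 1 and 2 but 10.99 and 11.11 on the other pair, so that this group spanned the whole range of the others. The complex V mean was 11.66 ± 0.14 in UGE, 11.33 ± 0.18 in Sca-1Hi, 11.48 ± 0.31 in Sca-1Lo and 11.42 ± 0.41 in Sca-1Neg.

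**Figure D1:**
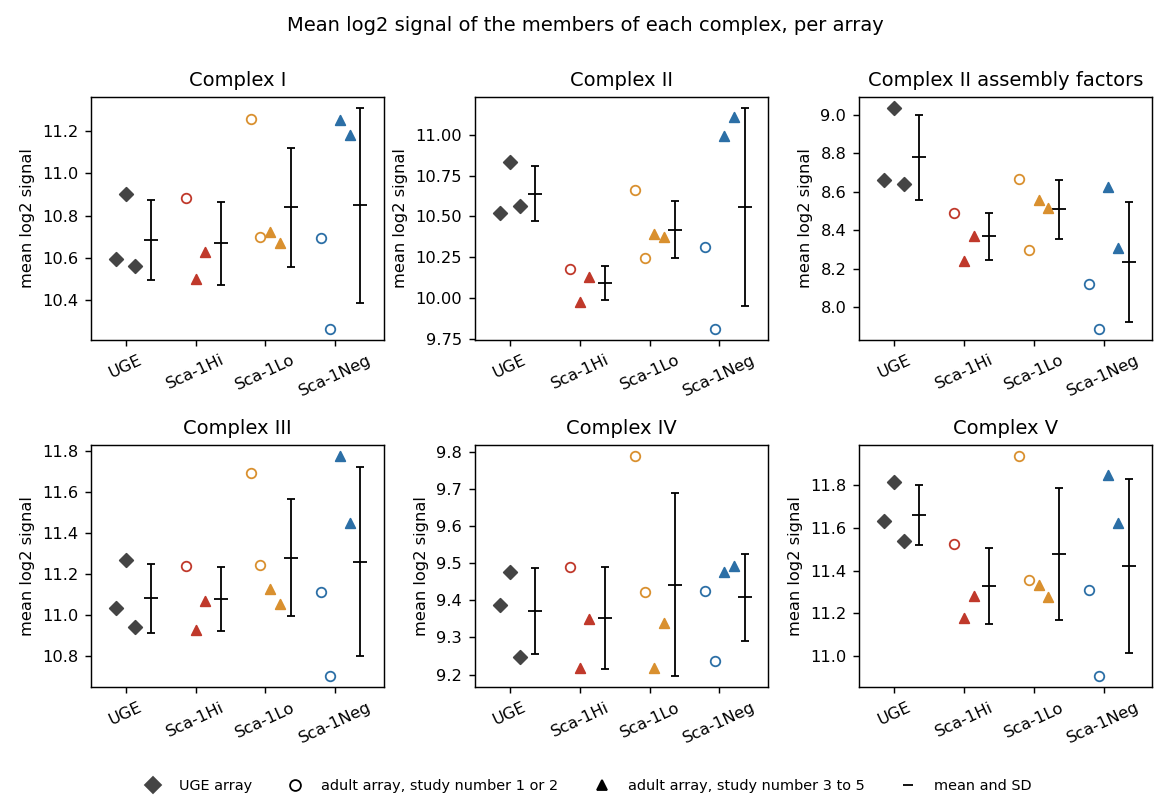
Mean log2 signal over the members of each complex (y axis) on each of the 14 arrays, by cell population (x axis). Open circles are adult arrays numbered 1 and 2, triangles adult arrays numbered 3 to 5, diamonds UGE, and the bar beside each group is the mean with its SD. Sca-1Neg splits by number in every panel, narrowly in complex IV, with the circles lowest and the triangles highest in the group. The complex II means of Sca-1Hi lie below those of UGE.

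Against Sca-1Neg, the reference of the study, few members differed in any population. A gene was called when the adjusted p was under 0.05 and the difference exceeded 0.81 on the log2 scale, the fold threshold of the study. In UGE no member was called, while 16.3% of all 17136 genes tested were called higher and 12.9% lower. At an unadjusted p under 0.05 the count was 6 of 86. The median difference over the members was 0.06, against 0.07 over all genes, and 49 of the 86 were positive. By complex the median was -0.17 for complex I, 0.17 for complex II, -0.08 for complex III, 0.05 for complex IV and 0.17 for complex V. In complex V, 16 of 17 members were positive, from -0.03 to 0.65 for Atp5a1, which encodes the catalytic hexamer's alpha subunit. Against the Sca-1Neg arrays numbered 3 to 5 alone it was 7 of 17, with a median of -0.0045. After quantile normalization of all arrays, 6 members were called lower in UGE than in Sca-1Neg (14.7% of all genes) and 0 higher, and the median over the members was -0.21. The 95% interval of a member's difference reached 0.65 to either side at the median. Ndufa1, a small subunit needed for assembly of complex I, came closest to a call: its 3 UGE values of 12.08, 12.37 and 12.01 all lay below the Sca-1Neg values of 12.68, 12.44, 13.29 and 13.12 (difference -0.73 ± 0.25 (SE), adjusted p = 0.0457, 1.66-fold).

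In Sca-1Hi, 2 members were called lower than in Sca-1Neg and 0 higher, against 5.19% and 6.11% of all genes. The first was Ndufa4l2, a paralog of Ndufa4 that is induced by hypoxia-inducible factor and is a known transcript of pericytes. Its signal was 6.34, 6.06 and 5.70 in Sca-1Hi and 8.46, 8.35, 6.47 and 9.03 in Sca-1Neg, a difference of -2.05 ± 0.50 (adjusted p = 0.0181). The groups did not overlap, although the third Sca-1Neg array lay far closer to Sca-1Hi than the others. The difference was -2.07 within the arrays numbered 1 and 2 and -1.87 within those numbered 3 to 5, where it was no longer called (adjusted p = 0.116). The call was also lost with the 2 groups fitted alone, by the methods' t-test, and without the second or the third Sca-1Hi array or the first Sca-1Neg array, at differences of -2.06, -1.88 and -1.92. The smooth muscle and pericyte markers, with which Ndufa4l2 shares a known source, had a summed signal of 8410 to 24140 in Sca-1Hi and 28100 to 95490 in Sca-1Neg. Among them Rgs5, a defining pericyte gene, was at 8.59 ± 0.84 in Sca-1Hi and 12.45 ± 1.37 in Sca-1Neg. Their part in the difference of Ndufa4l2 was not tested.

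The second was Sdhc, a membrane anchor of complex II. Its 3 Sca-1Hi values of 9.43, 9.16 and 9.38 lay below all Sca-1Neg values (10.09, 9.60, 10.43 and 11.08; difference -0.98 ± 0.30, adjusted p = 0.0482). Leaving out any 1 array other than the second of Sca-1Neg (13 of 14 cases) ended the call of Sdhc, and it was also lost with no filter on low signals and with the 2 groups fitted alone. Without 1 array the difference ranged from -1.21 to -0.72. It was -0.42 within the arrays numbered 1 and 2 (adjusted p = 0.608) and -1.48 within those numbered 3 to 5 (adjusted p = 0.0281). The other complex II genes had differences of -0.25 for Sdha, the flavoprotein, -0.43 for Sdhb, the iron-sulphur protein, and -0.20 for Sdhd, the second anchor. None of these 3 was called, and their intervals ran from -0.92 to 0.43, from -1.06 to 0.21 and from -0.95 to 0.55. The median difference from Sca-1Neg was -0.13 for complex I, -0.34 for complex II, -0.24 for complex III, 0.06 for complex IV and -0.08 for complex V.

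In Sca-1Lo, Ndufa4l2 was again the 1 member called, and it was lower: 6.61, 6.70, 5.49 and 5.79 against the Sca-1Neg values above (difference -1.94 ± 0.46, adjusted p = 0.0493). The groups overlapped through the third Sca-1Neg array, and leaving out any of 12 arrays in turn ended the call, with differences from -2.47 to -1.62 over all 14 cases. Over all genes 0.829% were called lower and 1.68% higher. Medians by complex lay between -0.11 for complex II and 0.10 for complex IV. The comparisons with Sca-1Neg share those 4 arrays and are not independent of each other.

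**Figure D2:**
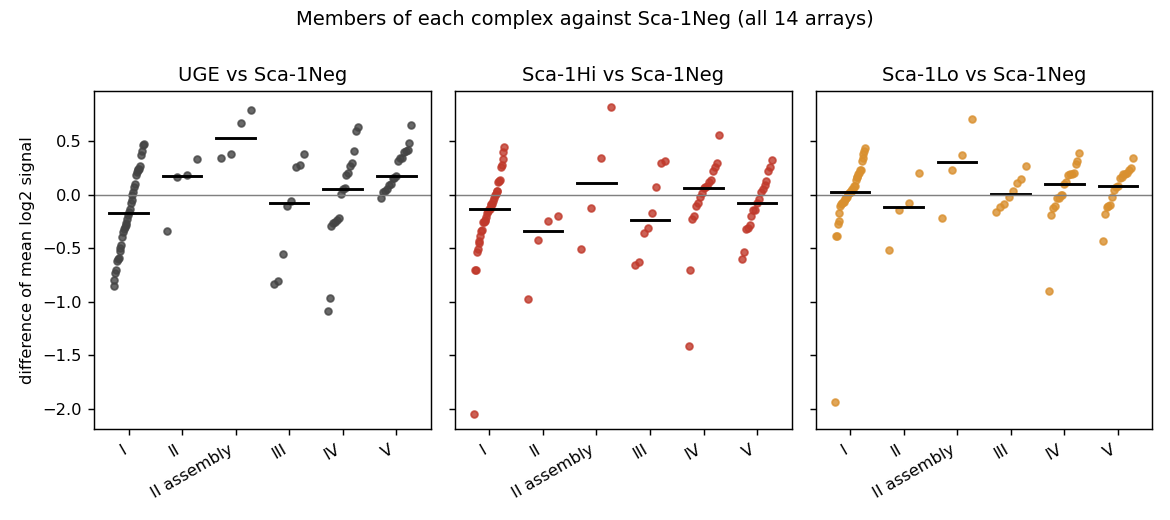
Difference in mean log2 signal from Sca-1Neg (y axis) for every member, grouped by complex (x axis), in UGE, Sca-1Hi and Sca-1Lo; each point is a gene and the black line is the median of the complex. Most points lie within 0.5 of 0, with Ndufa4l2, counted with complex I by its symbol, near -2 in both adult populations.

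These medians near 0 joined values of opposite sign in the 2 sets of adult arrays. Among the arrays numbered 3 to 5, 8 of the 86 members were positive in Sca-1Hi relative to Sca-1Neg, with a median of -0.50 against -0.07 over all genes. Among those numbered 1 and 2 it was 72 of 86, with a median of 0.43 against 0.15 over all genes. In Sca-1Hi 46.7% of all genes were positive among the arrays numbered 3 to 5 and 59.8% among the others. Sca-1Lo gave 8 of 86 (median -0.38) and 80 of 86 (median 0.50). Over all genes its medians were 0.009 and 0.17, with 50.6% and 62.9% positive. For complex I the median difference of Sca-1Hi from Sca-1Neg was -0.66 in the higher-numbered set and 0.48 in the other, for complex II it was -0.92 and 0.13, and for complex V -0.46 and 0.48. In the set numbered 3 to 5 each group of adult cells had 2 arrays, and in the other Sca-1Hi had 1, which was assumed to vary like the rest.

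Calls within a set followed the same split. In the set numbered 3 to 5, 4 members were lower in Sca-1Hi than in Sca-1Neg (4.18% of all genes were called lower): Sdhc, Uqcrfs1, the Rieske iron-sulphur protein of complex III (-1.16 ± 0.28), Ndufb8, an accessory subunit of complex I (-1.22 ± 0.26), and Cox7a1, the muscle isoform of a complex IV subunit (-1.52 ± 0.34). With the UGE arrays kept whole, 6 members were lower in UGE than in those Sca-1Neg arrays (12.7% of all genes), and all 6 were complex I genes: Ndufa1, Ndufa13, Ndufb4, Ndufb10, Ndufs7 and Ndufv3. Of these, Ndufb4 was at or near the signal used as a filter. It was at 3.76, 3.71 and 3.63 in UGE and at 4.71 and 4.47 on those Sca-1Neg arrays. Cox7a1 was also near that signal on the Sca-1Hi arrays of this set, at 4.21 and 3.97. Against the Sca-1Neg arrays numbered 1 and 2, UGE had 8 members higher (27.9% of all genes) and 3 lower (16.8%). That direction depended on the scaling: after quantile normalization the same arrays gave 1 member higher (18.1% of all genes) and 15 lower (19.3%), and the median over the members went from 0.37 to -0.33. Without that normalization the higher ones included Atp5a1 (1.21 ± 0.30) and Atp5b (1.06 ± 0.27), which together form the catalytic head of ATP synthase. The control probe sets of Gapdh also differed between these arrays: the log2 ratio of the 3′ to the 5′ Gapdh probe set was 1.66 and 1.84 on the Sca-1Neg arrays numbered 1 and 2 and 2.75 and 2.69 on the others. The part of RNA quality or array scale in the split was not tested.

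**Figure D3:**
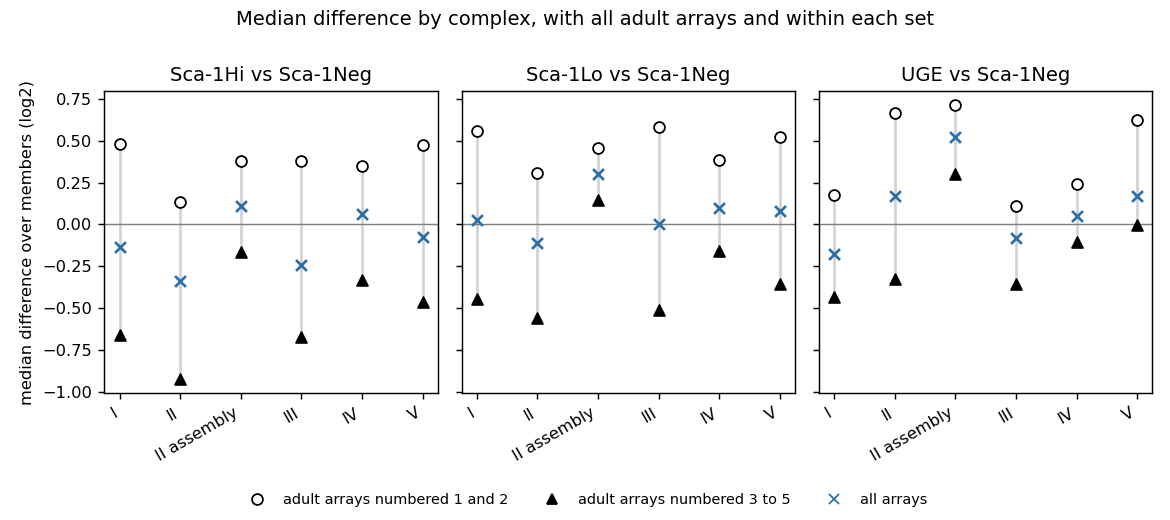
Median difference from Sca-1Neg over the members of each complex (y axis, log2) with adult arrays numbered 1 and 2 (open circles), with those numbered 3 to 5 (triangles) and with all arrays (crosses), for Sca-1Hi, Sca-1Lo and UGE. For complexes I to V of Sca-1Hi and Sca-1Lo every circle lies above 0 and every triangle below it.

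Putting all arrays on 1 signal distribution (quantile normalization) narrowed the difference between the sets for the adult populations and removed the opposite signs for UGE. With it, the median of the members in Sca-1Hi relative to Sca-1Neg was -0.39 in the set numbered 3 to 5 (11 of 86 positive) and 0.04 in the other (49 of 86 positive). For Sca-1Lo the medians were -0.35 and 0.10. For UGE they were -0.16 and -0.33, in place of -0.28 and 0.37 without it. Over all arrays together, 13 of 86 members were then positive in Sca-1Hi and the median was -0.28, against -0.08 over all genes.

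Differences in mean between the fetal and adult stem cell populations, UGE and Sca-1Hi, do not involve that split reference, but their SE and calls do. The spread was estimated over all 14 arrays, those of Sca-1Neg included. Sca-1Hi was itself divided, with 1 array numbered 1 and the others numbered 3 and 4. Between UGE and Sca-1Hi the medians of the complexes were unequal. There were 4 calls: 2 members higher in UGE (15.8% of all genes were called higher) and 2 lower (12% of all genes). The median difference over the 86 was 0.06, against -0.0002 over all genes. On 25 members every UGE array lay above every Sca-1Hi array and on 12 every one lay below, shares of all genes being 28.7% and 23.9%. The median was -0.08 for complex I, 0.57 for complex II, -0.07 for complex III, -0.03 for complex IV and 0.35 for complex V.

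Complex II was the group whose 4 genes all leaned to UGE, though none was called. Sdha was at 11.15, 11.60 and 11.50 in UGE and 10.80, 10.98 and 11.24 in Sca-1Hi, which overlap (difference 0.41, 95% interval -0.31 to 1.13). Sdhb was at 11.25, 11.64 and 11.19 against 10.90, 10.63 and 10.72, with no overlap (0.61, interval -0.07 to 1.29). The anchors Sdhc (0.64, interval -0.05 to 1.32) and Sdhd (0.53, interval -0.27 to 1.33) did not overlap either. The median of the 4 was 0.49 with the Sca-1Hi array numbered 1, 0.68 with the arrays numbered 3 and 4, and 0.36 after quantile normalization. With quantile normalization and the array numbered 1 alone it was 0.09, with 3 of 4 positive. Sdha, with 4 probe sets, and Sdhc and Sdhd, with 2 each, are given here only by the probe set of highest mean. Of the assembly factors, Sdhaf1, which delivers iron-sulphur clusters to Sdhb, was higher in UGE: 8.86, 8.92 and 8.69 against 8.25, 7.68 and 7.90 (difference 0.88 ± 0.25, adjusted p = 0.0205). It lost the call, at differences of 0.72 and 0.75, after quantile normalization and after centring on the 75th percentile, and it was 0.58 against the Sca-1Hi array numbered 1 alone. The call of Sdhaf1 was also lost without the second or the third Sca-1Hi array (0.75 and 0.86) and without the first or second UGE array (0.86 and 0.83).

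Within complex I the members spread to both sides. Ndufs4, a subunit of the NADH-oxidising arm whose loss causes Leigh syndrome, was higher in UGE: 9.95, 10.01 and 9.85 against 9.21, 8.46 and 8.90 in Sca-1Hi (difference 1.08 ± 0.25, adjusted p = 0.00619). The groups were well apart on this probe set. Of its 3 other probe sets, however, 1 gave 0.52, 1 gave -0.11 and the dimmest gave -1.04, and the mean over all 4 was 0.11. The call was also lost after quantile normalization (0.86) and with the Sca-1Hi array numbered 1 alone (0.72). Of the core subunits, Ndufs1 and Ndufs3 had differences of 0.77 and 0.66, Ndufv1 and Ndufv2 of 0.02 and 0.20, and Ndufs7 and Ndufs8 of -0.29 and -0.32. None of these 6 was called. Accessory subunits other than Ndufs4, and leaving Ndufa4l2 aside, reached from 0.81 for Ndufa10 to -0.92 for Ndufb10 and -0.80 for Ndufa6, not called either. The member with the widest difference, Ndufa4l2 (1.44 ± 0.53), is counted with complex I only by its symbol. It did not pass the adjusted threshold (adjusted p = 0.0600).

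Complex III split in the same manner. Uqcr10, a small accessory subunit, was lower in UGE: 9.02, 9.54 and 8.57 against 10.35, 10.19 and 9.94 in Sca-1Hi (difference -1.12 ± 0.31, adjusted p = 0.0160). No UGE array reached the lowest Sca-1Hi array, and the 2 other probe sets of the gene gave -1.06 and -1.41. With the Sca-1Hi array numbered 1 alone it was -1.31 and not called, and the call was also lost without the first or second Sca-1Hi array (-1.02 and -1.10), without the third UGE array (-0.88) and by the methods' t-test. It was also lower in UGE than in Sca-1Lo (difference -0.95 ± 0.29, adjusted p = 0.0289), where the values were 10.52, 9.82, 9.82 and 9.80. Without the first of those arrays the difference was -0.77 and was not called. The same held without the first or the third UGE array (-0.93 and -0.71), with the 2 groups fitted alone, by the methods' t-test and with the Sca-1Lo arrays numbered 3 to 5 (-0.77). The catalytic Uqcrfs1 and the core protein Uqcrc1 had differences between UGE and Sca-1Hi of 0.91 (interval 0.16 to 1.66) and 0.73 (interval -0.20 to 1.66), without a call.

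In complex V, 14 of 17 members were positive in UGE relative to Sca-1Hi, and none was called. The largest was Atp5b, the catalytic beta subunit: 12.27, 12.67 and 12.48 in UGE and 10.77, 11.91 and 11.68 in Sca-1Hi (difference 1.02, interval 0.14 to 1.90). These values do not overlap, and the first Sca-1Hi array was the farthest away. The peripheral stalk subunit Atp5o had a difference of 0.72 (interval 0.08 to 1.35). The genes of the proton-conducting c ring, Atp5g1, Atp5g2 and Atp5g3, which encode the same mature protein, had 0.68, 0.38 and 0.41. The complex V median depended on the arrays: it was 0.0041 with 9 of 17 positive against the Sca-1Hi array numbered 1 and 0.39 with 16 of 17 positive against the arrays numbered 3 and 4. With the latter pair of arrays, 7 members were called higher (16.1% of all genes) and 2 lower (13.2%), and the 4 members called with all arrays were among them. With the same Sca-1Hi arrays and all others kept in the fit, the only members called were Ndufs4 and Sdhaf1, both higher in UGE. With the array numbered 1 and quantile normalization, 3 were higher (13.6% of all genes) and 11 lower (11.5%).

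**Figure D4:**
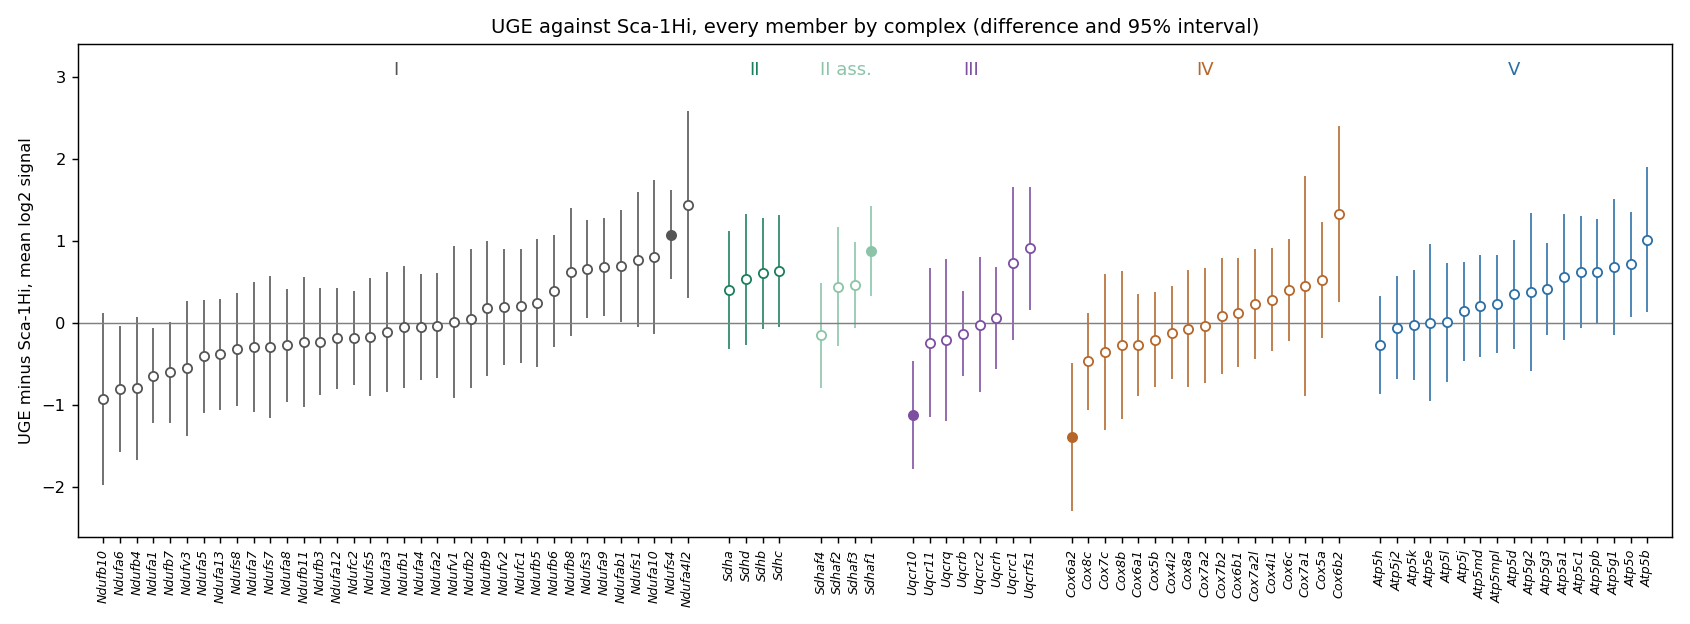
UGE minus Sca-1Hi difference in mean log2 signal with its 95% interval (y axis) for each of the 86 members (x axis), sorted within each complex; filled points passed the threshold. The 4 complex II genes lie between 0.41 and 0.64, whereas complexes I, III and IV extend to both sides of 0.

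The Gapdh control ratio moved with this comparison. The log2 ratio of 3′ to 5′ probe sets was 1.83 to 2.38 on the UGE arrays and 3.07 to 3.48 on the Sca-1Hi arrays, without overlap, whereas that of Actb overlapped (1.54 to 2.09 and 1.59 to 2.77). Markers of cell types moved too. Of 6 luminal secretory markers, 4 were lower in UGE, with a median difference of -8.93 over the list: Pbsn, Msmb, Tgm4 and Spink1, whereas the luminal keratins Krt8 and Krt18 were not called. The summed signal of the 6 was 13820 to 19240 in UGE and 38630 to 56070 in Sca-1Hi. All 8 endothelial markers were lower in UGE, with summed signals of 220.3 to 858.4 in UGE and 10210 to 19280 in Sca-1Hi. Of 9 markers of smooth muscle and pericytes, 5 were lower in UGE and 1 was higher. Among these 9, Rgs5 and Notch3 had higher means in UGE (9.68 and 10.81) than in Sca-1Hi (8.59 and 8.58). Of 10 leukocyte markers, 1 was higher in UGE and 2 were lower, with a median difference of 1.2 over the list. The part of RNA quality or of these cells in the differences between subunits was not tested.

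Isoforms of complex IV that mark particular tissues gave most of its range. Cox6a2, the isoform of heart and skeletal muscle, was lower in UGE than in Sca-1Hi: 7.38, 7.42 and 6.91 against 8.78, 8.54 and 8.54 (difference -1.38 ± 0.42, adjusted p = 0.0259). After quantile normalization the difference was -1.47 and was not called. The call was also lost without any 1 of the 3 Sca-1Hi arrays (-1.30, -1.42 and -1.42) or the third UGE array (-1.22). The groups lay over 1 log2 unit apart at their nearest arrays, and the values of Sca-1Neg were 8.99, 9.01, 7.90 and 7.38, the last below the highest UGE array. Its second probe set was dim, with a mean log2 signal of 2.06, and gave -0.18. The ubiquitous Cox6a1 had a difference of -0.26. Cox6b2, a testis isoform, was at 8.22, 7.79 and 7.84 in UGE and 6.23, 6.54 and 7.09 in Sca-1Hi (1.33, interval 0.25 to 2.40, adjusted p = 0.0657), and its ubiquitous partner Cox6b1 had 0.13. Cox7a1, the muscle isoform, was at 6.02, 4.21 and 3.97 in Sca-1Hi and 6.90, 6.47, 5.33 and 5.89 in Sca-1Neg (-1.41 ± 0.58, adjusted p = 0.129). It was higher on the adult arrays numbered 1 and 2 in all 3 populations, and with the set as a block the difference was -1.16 ± 0.26 and was called (adjusted p = 0.0122).

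The remaining isoforms showed no call in any comparison. Cox4i1, the common isoform of the largest nuclear-encoded subunit of complex IV, averaged 13.04, 12.75, 12.82 and 12.63 in UGE, Sca-1Hi, Sca-1Lo and Sca-1Neg, and Cox4i2, its oxygen-responsive paralog, 5.69, 5.80, 5.88 and 5.91. Cox5a and Cox5b differed between UGE and Sca-1Hi by 0.52 and -0.20. Cox8b and Cox7b2, isoforms of muscle and testis, were at or near the signal of 20 used as a filter, with group means of 3.96 to 4.51 for Cox8b and 3.65 to 3.93 for Cox7b2. Cox8c, another testis isoform, and Cox7c had differences between UGE and Sca-1Hi of -0.46 (interval -1.05 to 0.13) and -0.35 (interval -1.30 to 0.60). Cox7a2, Cox7a2l, Cox6c and Cox8a had differences between UGE and Sca-1Hi from -0.07 to 0.40. Ndufa4, listed with complex I by its symbol although it is now regarded as a subunit of complex IV, differed by -0.05.

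**Figure D5:**
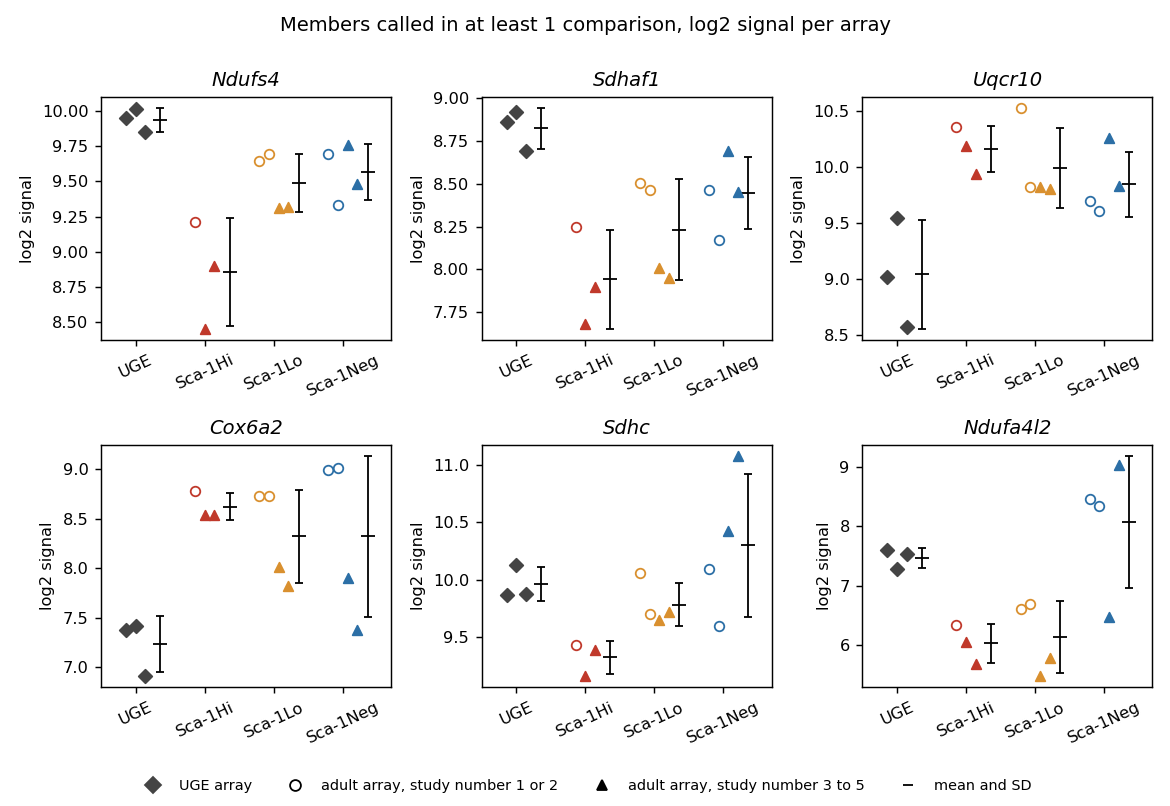
Log2 signal on each array (y axis) of the 6 members called in at least 1 comparison, by cell population (x axis), with symbols for the 2 sets of adult arrays and the mean with SD beside each group. UGE has the highest mean for Ndufs4 and Sdhaf1 and the lowest for Uqcr10 and Cox6a2, and Sca-1Neg stands highest for Ndufa4l2 except on 1 array.

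Between UGE and Sca-1Lo, Uqcr10 was the only member called, while 12.2% of all genes were lower and 13.4% higher. Ndufa1 reached an adjusted p of 0.0330 at a difference of -0.81 (interval -1.35 to -0.27) but lay just under the minimum. The median was 0.22 for complex II, with 4 of 4 positive, and 0.20 for complex V, with 11 of 17, and it was -0.22 for complex I, with 10 of 36. These medians varied with the set of Sca-1Lo arrays, numbered 1 and 2 or 3 to 5: 0.16 and 0.28 for complex II, 0.06 and 0.37 for complex V, and -0.34 and -0.02 for complex I. With quantile normalization and the first of these sets they were -0.20 for complex II, with 1 of 4 positive, -0.24 for complex V and -0.61 for complex I, and 20 members were called lower (18.2% of all genes) and 0 higher. Between Sca-1Hi and Sca-1Lo no member was called by limma (0.0817% of all genes were called higher and 0.0175% lower), none by the methods' t-test, and 1 had an unadjusted p under 0.05, Ndufs4. Of the 86 members, 20 were positive and the median was -0.16, against -0.04 over all genes. Without the first Sca-1Lo array 37 were positive and the median was -0.065. The median was -0.37 for complex II, with 0 of 4 positive, and was -0.27 within the arrays numbered 1 and 2 and -0.37 within the others.

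Genes that serve the chain without being subunits of it were also compared between UGE and Sca-1Hi. Of 33 assembly factors measured, 10 were higher in UGE and 1 was lower, with a median difference of 0.55; over all genes 15.8% were higher and 12% lower. They were Nubpl (2.64 ± 0.43), Ndufaf1, Ndufaf4 and Ndufaf5 for complex I, Sco1 (1.24 ± 0.23), Cox10, Cox11, Cox19 and Lrpprc for complex IV, and Atpaf1 (1.21 ± 0.32) for complex V. Ttc19, which acts on complex III, was lower (-2.01 ± 0.47). With the Sca-1Hi arrays numbered 3 and 4 the counts were 10 and 1 (16.1% and 13.2% of all genes). After quantile normalization they were 7 and 3 (15.4% and 12.1%). With the Sca-1Hi array numbered 1 alone the median difference was 0.40. Against Sca-1Neg, 2 of the 33 were higher in UGE (16.3% of all genes) and 1 was lower (12.9%). In Sca-1Hi 1 was higher (Ttc19, beside 6.11% of all genes) and 0 lower (5.19%).

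Of 16 genes of the citrate cycle and pyruvate dehydrogenase, 5 were higher in UGE than in Sca-1Hi and 0 lower, at a median difference of 0.91, beside the same shares of all genes: Cs, the citrate synthase (1.06 ± 0.36), Idh3a, Suclg2, Sucla2 and Dlat. Citrate synthase had a mean of 12.14 ± 0.26 in UGE, 11.08 ± 0.16 in Sca-1Hi, 11.09 ± 0.35 in Sca-1Lo and 11.56 ± 0.67 in Sca-1Neg. The median was 0.92 with the Sca-1Hi array numbered 1, 0.78 with the arrays numbered 3 and 4, and 0.69 after quantile normalization. Against Sca-1Neg, Ogdh was the 1 gene lower in UGE (-0.99 ± 0.27) and Pdhx the 1 lower in Sca-1Hi (-1.03 ± 0.31), with 0 higher in either. Over all genes 12.9% and 5.19% were lower in these 2 comparisons, and 16.3% and 6.11% higher. With the Sca-1Neg arrays numbered 1 and 2, 6 of the 16 were higher in UGE and 0 lower (median 0.76). With the others 0 were higher and 2 lower (median -0.18). Of all genes 27.9% were higher and 16.8% lower with the first pair, and 10.8% and 12.7% with the other.

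Regulators of mitochondrial biogenesis were higher in UGE in 5 of 16 cases against Sca-1Neg and lower in 1, beside 16.3% and 12.9% of all genes. Nrf1, which encodes the factor whose motif is described above, was at 8.42 ± 0.19 in UGE and 7.17 ± 0.52 in Sca-1Neg (1.25 ± 0.32). Tfam, the packaging and transcription factor of mitochondrial DNA, was at 10.03 ± 0.24 in UGE, 8.77 ± 0.08 in Sca-1Hi, 9.06 ± 0.16 in Sca-1Lo and 8.94 ± 0.37 in Sca-1Neg. Pprc1, Gabpa and Gabpb1 completed the 5, and the coactivator Ppargc1b was lower (-2.43 ± 0.52). With the Sca-1Neg arrays numbered 1 and 2, 10 were higher (27.9% of all genes), and with the other pair 2 were (10.8%). Among the 4 pyruvate dehydrogenase kinases, which shut off the entry of pyruvate into the cycle, Pdk1 was higher in UGE than in Sca-1Neg (2.35 ± 0.27) and Pdk2 and Pdk4 were lower, at -1.10 ± 0.32 and -2.62 ± 0.92. In Sca-1Hi, Pdk2 (-1.09 ± 0.32) and Pdk3 (-1.05 ± 0.31) were lower than in Sca-1Neg. None of the 6 measured carriers for ATP, ADP and phosphate was called in a comparison. Cyct, the testis cytochrome c, was higher in Sca-1Hi than in Sca-1Neg (2.10 ± 0.32), but on a dim probe set with 5.23 ± 0.30 against 3.13 ± 0.49. The single measured gene of mitochondrial DNA, ND5, averaged 12.81 in UGE, 13.48 in Sca-1Hi, 12.96 in Sca-1Lo and 12.93 in Sca-1Neg and was not called.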

How the data were processed

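RNA of 14 samples was hybridised to Affymetrix mouse whole-genome arrays after amplified labelling. The authors deposited 1 signal intensity per probe set and array, on a linear scale; the submitters' processing notes name MAS5 and PLIER, without versions. Of 45101 probe sets, 64 array controls were left out. The log2 of each signal was used as it stood, without a constant or another normalization, and 41031 probe sets above 20 on at least 1 array were fitted in 1 model of the 4 groups with limma 3.58.1 in R 4.3.3; p-values were adjusted by Benjamini-Hochberg over all of them. Genes were counted through the probe set of highest mean over the 14 arrays among those naming a single gene (17136 tested). A call needed an adjusted p under 0.05 and a log2 difference over 0.81. Tables were handled with pandas 2.3.3 in Python 3.11.15, and the fit was tested on simulated data.

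Of the members, 51 had several probe sets and 50 were represented by a probe set that can match related transcripts (suffix a, s or x); 8 further symbols stood only on probe sets naming several genes and were left out. Levels of different probe sets were not compared. Genes were named by rule: called members, all of complex II, isoform families, core subunits of complex I, and called genes of the mitochondrial lists. Other names were chosen after their values were seen. Members and lists were chosen with earlier results of these data known. Groups and replicate numbers came from the sample labels, which do not state separate animals, so p-values measure only the spread between these samples. Over the 19 pairs of arrays with the same label number, deviations from the group means correlated from -0.467 to 0.584, above 0.1 in 9, so the number was not used as a block. The number of arrays limits the precision. Alternatives were other scalings, filters, probe set rules, samples and tests, including the methods' t-test, and each array left out in turn. The authors' supplementary comparisons were not used.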

Additional observations from a re-analysis of the deposited data

Results flagged for a closer look

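The first Sca-1Lo array stood apart from the other 3 of its group in 3 of 24 groups of 4 arrays examined, and was the highest each time. Its gap to the nearest array, as a share of the range of the group, was 0.913 for the complex I mean, 0.876 for the complex V mean and 0.976 for Uqcr10, against a critical value of 0.83. The complex I mean was 11.26 on that array and 10.70, 10.72 and 10.67 on the others, and the complex V mean was 11.94 against 11.36, 11.33 and 11.28. Uqcr10 was at 10.52 against 9.82, 9.82 and 9.80. Chance flags about 1 in 20 such groups, and the 3 are not independent, since they share the array.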

How the results depend on the processing

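No member called in the fit of all arrays was called with the opposite sign in another setting. UGE against Sca-1Neg had no such member. There, the direction of most calls within adult arrays numbered 1 and 2 depended on the scaling, as given above. Complex medians also changed sign between settings. Counts of members called moved as follows. In Sca-1Hi against Sca-1Neg (2) the count was 1 with no filter, 0 with the 2 groups alone, 0 by the methods' t-test, 1 within adult arrays numbered 1 and 2 and 4 within those numbered 3 to 5. In Sca-1Lo against Sca-1Neg (1) it was 0 with no filter, with centring on the 75th percentile, with the 2 groups alone, by the t-test and within arrays 3 to 5. In UGE against Sca-1Neg (0) it was 1 with 16 added, 6 after quantile normalization, 2 with centring, 11 and 6 within the 2 sets, 1 with no fold minimum, 1 by the t-test and 2 with the mean over probe sets. In UGE against Sca-1Lo (1) the same settings gave 4 (quantile), 4 (centring), 4 (2 groups alone), 11 and 2 (sets), 2 (no fold minimum), 2 (t-test) and 3 (mean over probe sets). In UGE against Sca-1Hi (4) the count stayed at 4 after quantile normalization, but as 1 higher (15.4% of all genes) and 3 lower (12.1%). Only 1 of the 4 members called in the fit of all arrays was among those. The count was 7 with the 2 groups alone and 9 within arrays 3 to 5. With the label number as a replicate block it was 2 in UGE against Sca-1Neg and 3 against Sca-1Lo; no pairing is stated, and the other 4 counts stayed within 1.5 times. Leaving out 1 array gave 0 to 3 for Sca-1Hi and 0 to 1 for Sca-1Lo against Sca-1Neg, 0 to 4 for UGE against Sca-1Neg, 1 to 7 against Sca-1Hi and 0 to 3 against Sca-1Lo.

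Combinations of quantile normalization with the sets were chosen after seeing the data. With the sets as a block they gave 5 (Sca-1Hi) and 2 (Sca-1Lo) against Sca-1Neg; within arrays 3 to 5 they gave 5, 0 and 6 (UGE) against Sca-1Neg, 8 for UGE against Sca-1Hi and 4 against Sca-1Lo; within arrays 1 and 2, UGE gave 16 (1 higher, 15 lower), 14 (3 and 11) and 20 (0 and 20) against Sca-1Neg, Sca-1Hi and Sca-1Lo.

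Complex medians moved mainly with the set, given first for arrays 1 and 2 and then for 3 to 5. For Sca-1Hi against Sca-1Neg they were 0.48 and -0.66 (I), 0.13 and -0.92 (II), 0.38 and -0.67 (III), 0.35 and -0.33 (IV), 0.48 and -0.46 (V). For Sca-1Lo they were 0.56 and -0.44 (I), 0.58 and -0.51 (III), 0.39 and -0.16 (IV), 0.52 and -0.36 (V), and with quantile normalization within arrays 3 to 5 -0.40, -0.45, -0.27 and -0.34. For UGE against Sca-1Neg they were 0.67 and -0.33 (II), 0.24 and -0.10 (IV), 0.63 and -0.0045 (V), and 0.17 and -0.43 (I). For UGE against Sca-1Hi they were -0.30 (I) and 0.0041 (V) in the first set and -0.27 and 0.10 (III), and against Sca-1Lo 0.10 (IV) in the second. Complex IV after quantile normalization was -0.15, -0.20 and -0.11 in UGE, Sca-1Hi and Sca-1Lo against Sca-1Neg, and in Sca-1Hi -0.27 and -0.076 with it within arrays 3 to 5 and 1 and 2, and -0.082 with the mean over probe sets. Centring moved the median of all genes from 0.07 to -0.13 in UGE against Sca-1Neg. With it, complex IV was -0.15 in UGE against Sca-1Neg and -0.17 against Sca-1Hi, and complex II 0.042 against Sca-1Lo. Complex II in UGE against Sca-1Hi was 0.36 after quantile normalization. Leaving out 1 array moved complex III of UGE against Sca-1Hi between -0.15 and 0.10, and complex IV against Sca-1Neg between -0.10 and 0.15 in UGE, -0.090 and 0.12 in Sca-1Hi and -0.10 and 0.17 in Sca-1Lo. The causes were not tested.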
